A study of Mus musculus with 20 samples.

Results

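The data examined here are the counts of 5 genes for secreted proteins, Gal, Npy, Orm1, Hp and Scgb1a1, among the 16003 genes of a single-cell RNA-seq table of mouse spinal cord. The 5 genes were selected on these same counts, for transcripts that looked far more abundant in cluster 1 of injured cords from PLX5622-fed mice than in that cluster of vehicle-fed mice. The size of that contrast is therefore a description of how they were picked, and nothing is supported with it. The name holds only in part. At 7 days post-injury (dpi) the level of Npy was lower under PLX5622 and that of Orm1 could not be told from vehicle. At 28 dpi the table listed no Gal UMI in either diet, though the library matrix held 1 in a vehicle cell of cluster 1.

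PLX5622 is an inhibitor of the CSF1 receptor, on which microglia depend for survival. C57BL/6J female mice, labelled as 8 to 10 weeks old, ate vehicle chow or chow with 1200 ppm PLX5622 for 2 weeks before a thoracic contusion or a sham laminectomy and then until tissue was taken. The 6 libraries were made from dissociated, unperfused cords: sham, 7 dpi and 28 dpi on each diet, with both sham libraries labelled as 7 and 28 d together. Each library was 1 pool of mice, so that a condition had 1 library and no difference between conditions could be tested.

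The table held 21016 cells, from 492 in the sham PLX5622 library to 9846 in the 28 dpi vehicle library, with a median of 2268.5 to 5127 unique molecular identifiers (UMIs) per cell. Cluster 1 is the authors' cluster by number, and 4 of its 6 listed markers of monocyte-derived macrophages (MDM) had their highest level there, with Gpnmb, Atp6v0d2, Fabp5, Mmp12 and Spp1 leading it. It is called MDM-like below. It held 185, 3023 and 3313 cells in the sham, 7 dpi and 28 dpi vehicle libraries, and 9, 100 and 161 cells in the PLX5622 libraries. Cells of cluster 1 were deepest in the 7 dpi PLX5622 library, with a median of 15945 UMIs against 5777 in the 7 dpi vehicle library, and at 28 dpi the medians were 6843 and 3875. The stated filter of the study kept cells with at most 3000 genes, but the table held 718 cells above that limit. In cluster 1 these were 54 of the 100 cells at 7 dpi under PLX5622 and 127 of 3023 under vehicle, and their weight is given beside the main results.

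Galanin, encoded by Gal, and neuropeptide Y, encoded by Npy, are short peptides that neurons store and release, each cut from a longer precursor. Haptoglobin (Hp) binds free haemoglobin in plasma, and orosomucoid 1 (Orm1) is a lipid-binding plasma glycoprotein. Both are acute phase proteins, made in bulk by the liver during inflammation and stored as well in neutrophil granules. Scgb1a1 encodes the secretoglobin of airway club cells. None of the 5 is a usual marker of macrophages.

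On GRCm38, Gal lies at chr19:3409915-3414544 and Scgb1a1 at chr19:9083636-9087958, both on the minus strand. Npy lies at chr6:49822710-49829507 and Orm1 at chr4:63344560-63348163 on the plus strand, and Hp at chr8:109575128-109579172 on the minus strand. Orm1 has close copies next to it. The last 300 bases of its transcript, the part that a 3′ library reads, differ from those of Orm2 at 7 positions and were 97.7% identical. Orm2 had 5 UMIs and Orm3 had 1 in all matrices together, and how reads shared by the copies were assigned makes the counts of Orm1 uncertain.

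Levels are given below as raw UMIs and as CPM, the UMIs of a gene per 1000000 UMIs of the same group of cells, with 95% Poisson intervals. Shares of cells have 95% exact binomial intervals, and log2 ratios have exact conditional intervals. All of them cover counting error only and not the difference between mice.

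Gal transcripts were nearly all found in cluster 1 and at 7 dpi. In cluster 1 the level was 23.1 CPM (21.1 to 25.4) under vehicle, from 460 UMIs in 152 of 3023 cells, and 298 CPM (273 to 324) under PLX5622, from 520 UMIs in 17 of 100 cells. The table lists no UMI of Gal in the other 4 libraries, but it sets a gene to 0 in a library where fewer than 3 cells hold it. The library matrices themselves had 2 UMIs of Gal in 1 sham vehicle cell of cluster 1 and 2 UMIs in 2 cells at 28 dpi under vehicle, 1 of them in cluster 1. The exact interval of the cluster 1 share reached 2.97% (1 of 185 cells) and 0.168% (1 of 3313) there. In the 28 dpi and sham PLX5622 libraries no cell of cluster 1 had a Gal UMI, and the exact upper limit of that share was 2.27% of 161 cells and 33.6% of 9 cells. These limits are on cells with a UMI, not on cells that express the gene.

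The Gal UMIs of the 7 dpi PLX5622 library sat in very few cells. The 8 cells with most Gal held 154, 108, 70, 64, 41, 26, 20 and 16 UMIs, together 96.0% of the 520. Cells with at least 10 UMIs of a gene are called its carriers below. Under vehicle 12 of 3023 cells were carriers, the top cell had 31 UMIs, and it took 22 cells to reach 50% of the total, where 2 cells were enough under PLX5622. These cell numbers come from 3023 and 100 cells, of which 152 and 17 had Gal. They therefore do not compare the spread of the gene between the diets. The log2 ratio of PLX5622 over vehicle was 3.69 (3.50 to 3.87), or 12.9-fold, and Gal ranked 1 of 8295 genes with at least 100 UMIs. Without the top cell of each library the ratio was 3.32.

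All 8 Gal carriers under PLX5622 had more than 3000 genes, and 519 of the 520 UMIs came from such cells. Among cells with at most 3000 genes the ratio reversed to -3.11 (-8.42 to -0.62), from 1 UMI under PLX5622 and 437 under vehicle. Under vehicle, cells above the limit held 5% of the Gal UMIs. Cluster 1 cells with at least 10000 UMIs still differed in depth between the diets, with a median of 19612 UMIs under PLX5622 and 12356 under vehicle at 7 dpi, and of 15283 and 11251 at 28 dpi. Among them at 7 dpi, 16 of 71 cells (22.5%, 13.5 to 34.0) had Gal under PLX5622 and 56 of 421 (13.3%, 10.2 to 16.9) under vehicle, at 322 and 35.6 CPM. Carriers were 8 of the 71 deep cells (11.3%, 4.99 to 21.0) under PLX5622 and 6 of the 421 (1.43%, 0.525 to 3.08) under vehicle.

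At 7 dpi under vehicle Npy was found in more cluster 1 cells than any other member, 380 of 3023. It was at 18.3 CPM (12.0 to 26.9) in cluster 1 of the sham vehicle library, 51.2 (48.1 to 54.5) at 7 dpi and 5.63 (4.45 to 7.02) at 28 dpi. The 7 dpi PLX5622 library had 22.3 CPM (15.9 to 30.5) and the 28 dpi PLX5622 library 402 CPM (368 to 438), and no UMI was found in the 9 sham cells. The highest level under vehicle was therefore at 7 dpi and under PLX5622 at 28 dpi. The log2 ratio of PLX5622 over vehicle was -1.20 at 7 dpi, with an interval of -1.70 to -0.74, and 6.16 at 28 dpi (5.81 to 6.52, or 71.4-fold).

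In the 7 dpi vehicle library 380 of 3023 cells (12.6%) had an Npy UMI, 195 of them exactly 1, and 59 cells were needed for 50% of the UMIs. At 28 dpi under PLX5622 23 of 161 cells (14.3%, 9.28 to 20.7) had one, against 23 of 3313 (0.694%) under vehicle. The 5 cells with most Npy in that PLX5622 library held 91, 78, 60, 53 and 47 UMIs, 63.6% of the 517, and 10 carriers held 92.8%. Unlike the pattern of Gal, the 28 dpi difference of Npy remained when deep cells were left out, with a log2 ratio of 4.23 (3.77 to 4.70) among cells with at most 3000 genes, although the cells above that limit held 433 of the 517 UMIs. Among cells with at least 10000 UMIs, Npy was found in 17 of 46 cells (37.0%, 23.2 to 52.5) under PLX5622 and in 3 of 65 (4.62%, 0.962 to 12.9) under vehicle at 28 dpi. The order was the other way at 7 dpi, with 10 of 71 (14.1%, 6.97 to 24.4) and 115 of 421 (27.3%, 23.1 to 31.8), and there the 3 top cells under PLX5622 had 11, 7 and 6 UMIs.

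**Figure D1:**
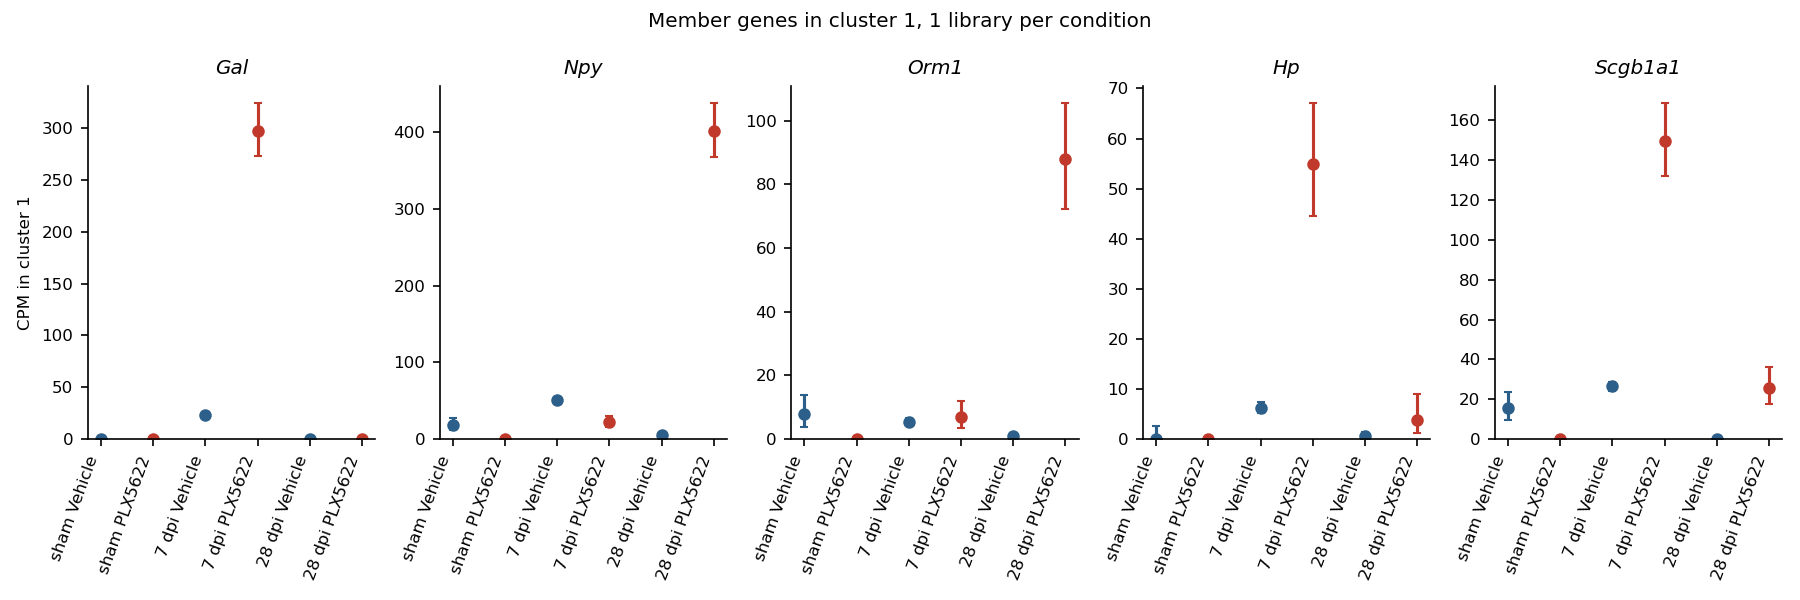
Level of each gene in cluster 1 by library in CPM, with 95% Poisson intervals as error bars and none drawn for the 9 cells of the sham PLX5622 library. Gal stood at 298 CPM and Scgb1a1 at 149 CPM at 7 dpi under PLX5622, and Npy at 402 CPM and Orm1 at 87.8 CPM at 28 dpi under PLX5622.

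Orm1 followed Npy in time under PLX5622. In cluster 1 the 7 dpi PLX5622 library had 6.87 CPM (3.55 to 12.0) and the 28 dpi one 87.8 CPM (72.4 to 106), against 7.76, 5.48 (4.50 to 6.62) and 1.08 CPM (0.606 to 1.78) in the sham, 7 dpi and 28 dpi vehicle libraries. With 12 UMIs against 109, the log2 ratio of the diets at 7 dpi was 0.33 (-0.67 to 1.19). With 113 against 15 at 28 dpi, it reached 6.34 (5.56 to 7.23). The 3 Orm1 carriers of the 28 dpi PLX5622 library had 52, 24 and 11 UMIs, 77.0% of the total, and the 5 top cells had 89.4%. One cell thus held almost as much Orm1 as all other cells of that cluster together. Cells with more than 3000 genes held 91.2% of the 113 UMIs, and without them the 28 dpi log2 ratio was 3.60 (2.27 to 4.88). In the cells with at least 10000 UMIs at 28 dpi, 9 of 46 (19.6%, 9.36 to 33.9) had Orm1 under PLX5622 and 2 of 65 (3.08%, 0.375 to 10.7) under vehicle.

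At 7 dpi under PLX5622 Hp was found in more cluster 1 cells than any other member, and 2 of these cells had 10 or more UMIs. In cluster 1 at 7 dpi it was at 6.24 CPM (5.19 to 7.44) under vehicle, from 124 UMIs in 96 of 3023 cells, and at 55.0 CPM (44.5 to 67.1) under PLX5622, from 96 UMIs in 27 of 100 cells. The top 5 cells under PLX5622 had 19, 12, 7, 7 and 5 UMIs, 52.1% of the total, and cells with more than 3000 genes held 80 of the 96. The log2 ratio was 3.14 (2.74 to 3.54), or 8.81-fold, and it was 2.85 (2.00 to 3.62) among cells with at most 3000 genes. In cells with at least 10000 UMIs, 25 of 71 (35.2%, 24.2 to 47.5) had Hp under PLX5622 and 25 of 421 (5.94%, 3.88 to 8.64) under vehicle, in cells that were again deeper under PLX5622. At 28 dpi 5 UMIs stood against 10, with a log2 ratio of 2.43 (0.53 to 4.11). Its interval spanned 0 without the top cell of each library, at 1.85 (-0.67 to 3.86). The same held among cells with at most 3000 genes, at 2.35 (-0.15 to 4.31). The 2 sham libraries had no Hp UMI in cluster 1.

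Scgb1a1 was found in cluster 1 of every vehicle library. It was at 15.5 CPM (9.72 to 23.5) in 7 of 185 sham cells, 26.5 CPM (24.3 to 28.9) in 207 of 3023 cells at 7 dpi and 0.288 CPM in 3 of 3313 cells at 28 dpi. Under PLX5622 it was at 149 CPM (132 to 169) in 24 of 100 cells at 7 dpi and 25.6 CPM (17.7 to 36.0) in 11 of 161 cells at 28 dpi. In both diets the 28 dpi level was the lower one. The diets differed by a log2 ratio of 2.49 (2.28 to 2.71) at 7 dpi. At 28 dpi 33 UMIs stood against 4, a log2 ratio of 6.47 (4.98 to 8.43).

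The 5 Scgb1a1 carriers at 7 dpi under PLX5622 had 92, 67, 24, 13 and 13 UMIs, 80.1% of the total, and under vehicle 6 carriers had 34.3%. Cells with more than 3000 genes held 254 of the 261 UMIs. Among cells below that limit the ratio reversed to -0.48 (-1.80 to 0.58), an interval that spans 0, from 7 UMIs against 493. As for Gal, the 7 dpi difference of Scgb1a1 thus rested on cells that the stated filter of the study would leave out. In cells with at least 10000 UMIs, 23 of 71 (32.4%, 21.8 to 44.5) had Scgb1a1 under PLX5622 and 59 of 421 (10.8 to 17.7%) under vehicle, at 161 and 19.6 CPM.

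**Figure D2:**
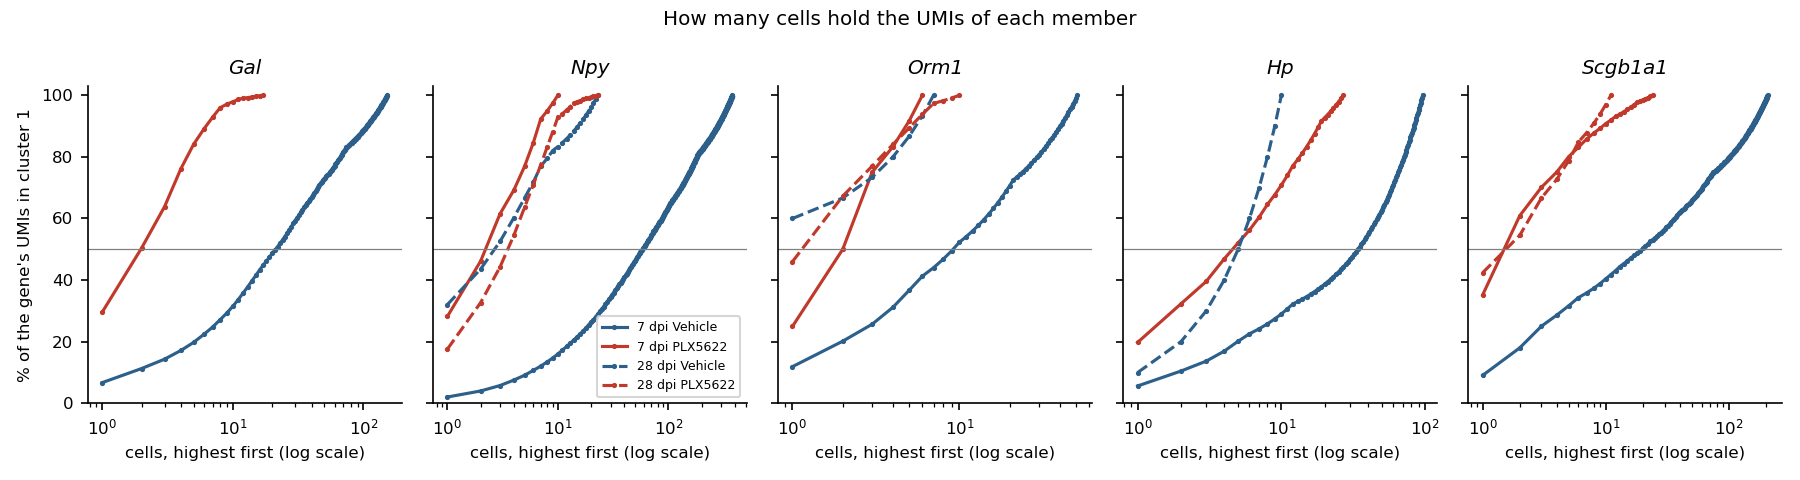
Cumulative percent of the UMIs of each gene in cluster 1 against the number of cells, ordered from the cell with most UMIs (log axis), for the libraries with at least 10 UMIs of the gene at 7 and 28 dpi, with a grey line at 50%. Under PLX5622 at 7 dpi 2 of 100 cells reached 50% for Gal and Scgb1a1, where 22 and 20 of 3023 cells were needed under vehicle. As the libraries differ in cell number, the curves do not compare the spread between the diets.

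As background to these values, 17 of 8295 genes (0.205%) with at least 100 UMIs were at least 4-fold higher under PLX5622 in cluster 1 at 7 dpi, and 33 of 7635 (0.432%) at 28 dpi. All 5 genes had 100 UMIs in both 7 dpi libraries together, and 3 passed 4-fold (Gal, Hp and Scgb1a1). At 28 dpi only Npy and Orm1 had 100 UMIs and both passed. These counts follow from how the genes were selected. The median log2 ratio of all those genes was 0.0036 at 7 dpi and 0.013 at 28 dpi.

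Few genes were as unevenly spread over cells. At least 50% of the UMIs lay in 5 cells for 26 of 1954 genes with 100 UMIs (1.33%) at 7 dpi under PLX5622, 12 of 1461 (0.821%) at 28 dpi under PLX5622 and 1 of 8098 (0.0123%) at 7 dpi under vehicle. Over those genes the top 5 cells held a median of 20.8%, 16.4% and 3.21% of the UMIs. Of the 5 genes, Gal and Scgb1a1 passed among those with 100 UMIs at 7 dpi under PLX5622, with 84.0% and 80.1%. Npy and Orm1 passed at 28 dpi under PLX5622, with 63.6% and 89.4%. No member passed at 7 dpi under vehicle, where the 5 top cells held 9.14% of the Npy, 19.8% of the Gal, 20.2% of the Hp, 31.7% of the Scgb1a1 and 36.7% of the Orm1 UMIs. At 28 dpi under vehicle the 5 top cells of 3313 held 66.7% of the 78 Npy and 86.7% of the 15 Orm1 UMIs. Neither gene had 100 UMIs there, so they were not counted against the other genes. Holding most of these UMIs in few cells was thus seen in both diets at 28 dpi.

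Positive cells were deeper than the rest of cluster 1. At 7 dpi under PLX5622 the median was 28940 UMIs in Gal-positive cells and 13475 in the others, and for Hp it was 26845 against 12643. At 28 dpi under PLX5622 it was 15858 in Npy-positive cells against 5995.5. Under vehicle at 7 dpi the medians were 8790.5 against 5640 for Gal and 7664 against 5545 for Npy. With every cell thinned to 1000 UMIs, 6.90% of cluster 1 cells at 7 dpi under PLX5622 kept a Gal UMI and 1.38% under vehicle. The thinned shares were 4.30% and 0.598% for Hp, and 5.53% and 1.68% for Scgb1a1. At 28 dpi the thinned share of Npy was 8.04% under PLX5622 and 0.258% under vehicle. Depth thus moved together with each gene, and the direction of these shares was the same after thinning.

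**Figure D3:**
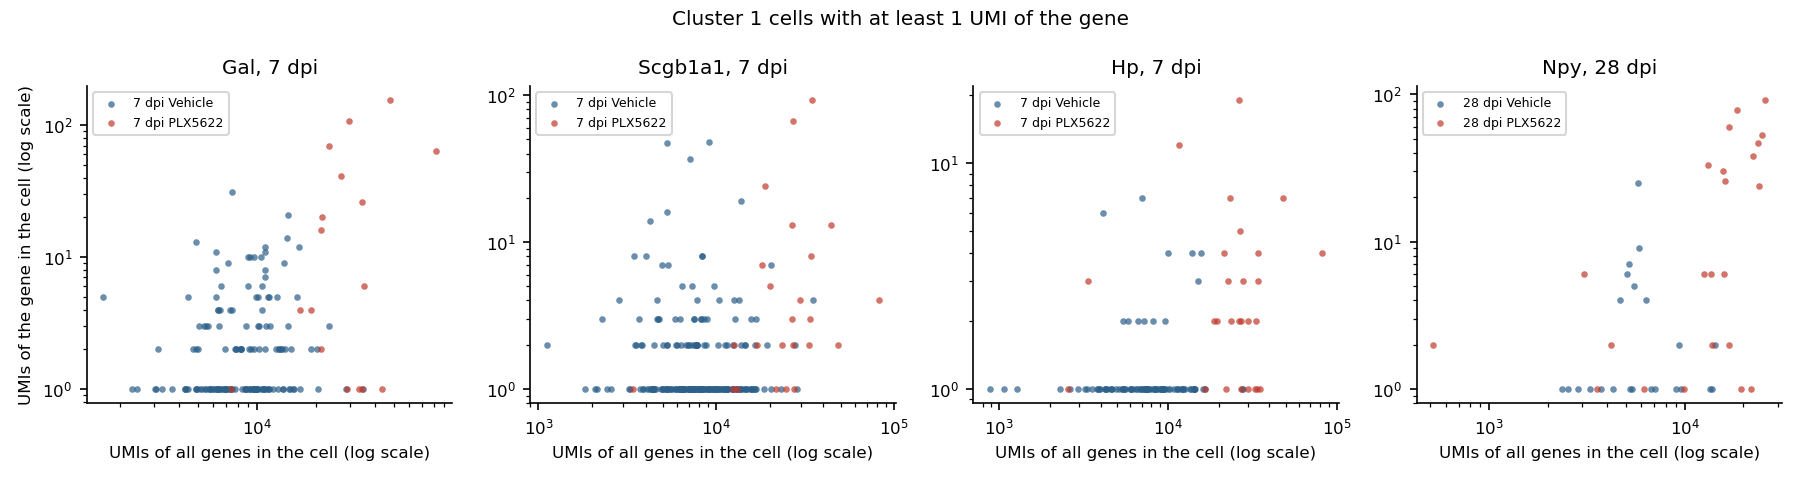
UMIs of a gene against all UMIs of the cell for cluster 1 cells with at least 1 UMI of the gene (log axes), for Gal, Scgb1a1 and Hp at 7 dpi and Npy at 28 dpi, by diet. The carriers of the PLX5622 libraries lay among the deeper cells, as the 8 Gal carriers with 21271 to 82077 UMIs each.

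The cell with 82077 UMIs and 8042 genes stood apart from the rest, and it held 64 UMIs of Gal. Scrublet, a program that scores likely doublets, called no cell of cluster 1 a doublet in the PLX5622 libraries, and it called 219 of the cluster 1 cells in the 7 dpi vehicle library. The PLX5622 libraries were small and only 2 cells at 7 dpi and 7 at 28 dpi were called there in any cluster. Barcodes shared with another library were found for 88 cells in all, of which 5 were member-positive cells of cluster 1, none of them in a PLX5622 library.

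UMIs in cells that should not make these proteins give the background of free RNA. Of the T cell-like and B cell-like cells at 7 dpi under vehicle (median 1794 UMIs, against 5777 in cluster 1), 0 of 343 had Gal, 8 (2.33%) had Npy, 2 (0.583%) Orm1, 6 (1.75%) Hp and 6 (1.75%) Scgb1a1. No member was found in 45 such cells at 7 dpi under PLX5622 (median 3443 against 15945), which allows up to 7.87% by the exact limit. At 28 dpi under PLX5622 2 of 222 (0.901%) had Npy and none had the other 4 genes, at a median of 2202.5 UMIs against 6843. In the 7 dpi vehicle library the cluster 1 shares of Gal (5.03%, 4.28 to 5.87), Npy (12.6%) and Scgb1a1 (6.85%) lay above the intervals of the lymphocyte shares. Those of Hp (3.18%) and Orm1 (1.69%) lay inside them, at 0.645 to 3.77% and 0.0707 to 2.09%, in deeper cells, so that Hp and Orm1 in that library are not told apart from background by their share of cells. Under PLX5622 the shares of Gal (17%), Npy (10%), Hp (27%) and Scgb1a1 (24%) at 7 dpi, and of Npy, Orm1 (6.21%), Hp (2.48%) and Scgb1a1 (6.83%) at 28 dpi, lay above the lymphocyte limits of their library, again in deeper cells, but the intervals of Npy at 7 dpi (4.90 to 17.6) and Hp at 28 dpi (0.681 to 6.24) reached below them. That of Orm1 at 7 dpi under PLX5622 (6%) lay under the limit of 7.87%. In the sham vehicle library no lymphocyte of 90 had Npy, Orm1 or Scgb1a1, which allows up to 4.02%, and the cluster 1 shares of 1.62%, 2.16% and 3.78% lay under it. In the 28 dpi vehicle library 2 of 678 lymphocytes had Npy, with an upper limit of 1.06%, and none had the other genes, which allows up to 0.543%. The cluster 1 shares of Npy (0.694%), Orm1 (0.211%), Hp (0.302%) and Scgb1a1 (0.0906%) lay under these limits, so that none is told apart from background by its share of cells in that library.

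The genes overlapped in single cells in part. At 7 dpi under PLX5622 44 of 100 cluster 1 cells had a UMI of at least 1 of the 5 genes, 19 of them of exactly 1 gene, and under vehicle 704 of 3023 had one (23.3%). At 28 dpi it was 29 of 161 cells (18.0%) under PLX5622 and 35 of 3313 under vehicle. Orm1 was found mostly in cells with another member at 7 and 28 dpi. At 28 dpi under PLX5622 9 of the 10 Orm1-positive cells had Npy, against 14.3% of all cells, and each of the 3 Orm1 carriers was also an Npy carrier. At 7 dpi under vehicle 31 of 51 Orm1-positive cells (60.8%) had Npy, against 12.6% of all cells, and at 28 dpi under vehicle it was 6 of 7. Scgb1a1 was found in 5 of the 10 Orm1-positive cells at 28 dpi under PLX5622, against 6.83% of all cells, and in 17 of the 51 (33.3%) at 7 dpi under vehicle, against 6.85%. Of the 6 Orm1-positive cells at 7 dpi under PLX5622, 5 had Gal, 4 had Scgb1a1 and 3 had Npy.

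Gal, Hp and Scgb1a1 shared positive cells at 7 dpi under PLX5622, but rarely their carriers. Of the 17 Gal-positive cells 11 (64.7%) had Hp, against 27% of all cells, and of the 24 Scgb1a1-positive cells 15 (62.5%) had Hp. Only 1 cell was a carrier of both Gal and Scgb1a1, with 41 and 67 UMIs, and 1 of both Hp and Scgb1a1. No carrier of Gal was a carrier of Npy in any library. Cells with any member were deeper (median 23553.5 UMIs against 10519), and deeper cells have more genes of every kind, so that the share of this overlap that comes from depth was not tested.

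Member-positive cells kept the markers of the cluster. All 17 Gal-positive cells at 7 dpi under PLX5622 had UMIs of Gpnmb, Spp1, Fabp5, Lgals3, Lyz2 and Csf1r. Gpnmb, a glycoprotein of lipid-laden macrophages, was at 10454 CPM in them and 7956 in the other cells, and Spp1, encoding osteopontin, at 76794 and 33969. At 28 dpi under PLX5622 Gpnmb was at 19682 CPM in Npy-positive cells and 6232 in the others. Over the 17 combinations of a gene and a library with at least 5 positive cells, Gpnmb and the fatty acid binding protein gene Fabp5 were higher in the positive cells in 17, and Lyz2 in 16.

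Genes of microglia went the other way. Cx3cr1, the fractalkine receptor, was lower in the positive cells in 17 of the 17 combinations, as were Gpr34, Siglech and Csf1r, the target of PLX5622. Tmem119 was lower in 16, P2ry12 in 15 and Sall1 in 13 of the 17. Sall1 was higher in 4, among them Gal-positive cells at 7 dpi under PLX5622, with 9.48 CPM against 7.38 in the others. At 28 dpi under PLX5622 Cx3cr1 was at 251 CPM in Npy-positive cells and 1182 in the others, Csf1r at 146 and 658, and Siglech and Sall1 were at 0 in the 23 Npy-positive cells and at 58.3 and 23.3 CPM in the others. Csf1r was at 263 CPM in Gal-positive cells and 436 in the others at 7 dpi under PLX5622. The combinations share cells and libraries, and these are genes on which the cells were clustered, so that the counts are a description of where in cluster 1 the positive cells lay.

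Carriers were compared with the other cluster 1 cells of their library, again as a description. The 10 Npy carriers at 28 dpi under PLX5622 were led by Orm1 with a log2 ratio of 6.35, the serine protease gene Htra1 with 4.83 (5 of 10 cells), the scavenger receptor gene Cd36 with 4.76 (5 of 10) and Mfge8, a bridging protein for uptake of dying cells, with 4.56 (4.40 to 4.73), all 10 carriers having Mfge8. Acp5, encoding a tartrate-resistant phosphatase, followed with 3.41. The lowest were the chemokine gene Ccl4 with -5.57 (-8.62 to -3.71), Sparc with -5.46 (-7.74 to -3.91) and the cystatin gene Cst7 with -5.32 (-7.60 to -3.76), from 2 or 3 UMIs each in the carriers. The median over 2777 genes was -0.15.

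The 8 Gal carriers at 7 dpi under PLX5622 had Sipa1l1 with a log2 ratio of 3.06 (6 of 8 cells), Tgm2, a transglutaminase, with 2.32 (7 of 8), Csf1, encoding a ligand of the receptor that PLX5622 inhibits, with 1.91 (8 of 8) and the integrin gene Itgax with 1.82 (8 of 8). Mt3 led the list with 3.19, but 67 of its 68 UMIs came from 1 cell. Sipa1l1 was also among the highest in the 12 Gal carriers under vehicle, with 2.91 in 8 of 12 cells. The lowest genes in those vehicle carriers were Cd81 with -5.18 (-8.22 to -3.32, from 2 UMIs), Tmem176b with -4.81 (-10.1 to -2.33, from 1 UMI) and Cx3cr1 with -4.74 (-6.62 to -3.39). The 5 Scgb1a1 carriers at 7 dpi under PLX5622 also had Cd81 lowest, with -5.43 (-10.7 to -2.94, from 1 UMI). They had Chil3, a chitinase-like protein gene of myeloid cells, at 2.67 (2.25 to 3.09) and Hp at 2.27 (1.60 to 2.92). Of these carriers, 4 had each gene, but 1 cell held 33 of the 78 Chil3 UMIs and 1 cell 19 of the 30 Hp UMIs.

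Outside cluster 1 the genes parted. Cluster 1 held 94.8% of all 1034 Gal UMIs, 94.6% of 895 for Scgb1a1, 80.6% of 2081 for Npy and 61.2% of 425 for Orm1, but 7.72% of 3045 for Hp. Hp was highest in the neutrophil-like cluster 9 in each library, at 1581, 1029 and 1172 CPM in the sham, 7 dpi and 28 dpi vehicle libraries and 1909, 716 and 1781 CPM in the PLX5622 libraries. It was found in 165 of 223 such cells at 7 dpi under vehicle and in 7 of 12 under PLX5622. In cluster 9 the diets differed at 7 dpi by a log2 ratio of -0.52 (-1.27 to 0.14), whose interval spans 0, and at 28 dpi by 0.60 (0.32 to 0.88).

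The monocyte-like cluster 3, led by MHC class II genes, Retnla and Ccr2, had Hp at 375, 91.8 and 136 CPM under vehicle and at 727, 76.1 and 80.2 CPM under PLX5622, in the same order of time. The diets differed there by a log2 ratio of 0.95 (0.50 to 1.39) in the sham libraries, -0.27 (-1.01 to 0.39) at 7 dpi and -0.77 (-1.47 to -0.11) at 28 dpi. Clusters 9 and 3 held 12 and 29 cells at 7 dpi under PLX5622. Cluster 8 had Hp at 821 CPM in the sham vehicle library and at 78.9 CPM (192 UMIs) at 7 dpi under vehicle, against 0 UMIs at 7 dpi under PLX5622, a log2 ratio of at most -2.09 against the floor of 3 counts. In the sham libraries its log2 ratio was -2.03, from 12 UMIs under PLX5622 and 257 under vehicle.

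Neutrophil transcripts in cluster 1 were measured beside Hp. S100a9, the most abundant neutrophil gene, had 7 UMIs in cluster 1 at 7 dpi under PLX5622 and 1426 under vehicle, a log2 ratio of -4.16 (-5.48 to -3.12), while Hp had 96 and 124. Retnlg, Ngp and Camp, which lead the neutrophil-like cluster, were at 0 UMIs in cluster 1 at 7 dpi under PLX5622, and S100a8 had a log2 ratio of 0.23 (0.03 to 0.43). Ltf, which also leads that cluster, had 8 UMIs under PLX5622 and 14 under vehicle, a log2 ratio of 2.70 (1.24 to 4.05). Of the 9 neutrophil genes found, 5 had 100 UMIs, with a median log2 ratio of -0.23.

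**Figure D4:**
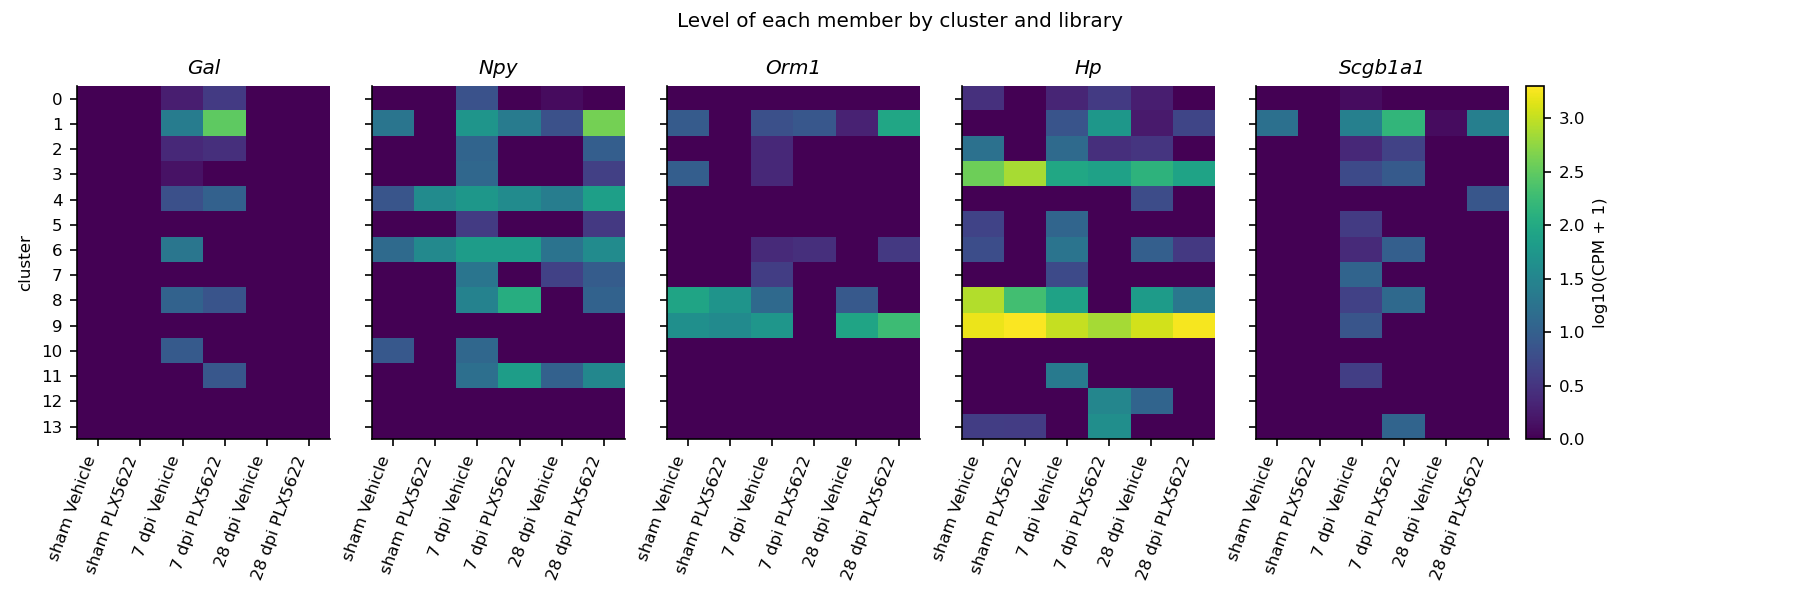
Level of each gene as log10(CPM + 1) in the 14 clusters and 6 libraries, as a heat map with 1 panel per gene. Hp was highest in cluster 9 in each library (716 to 1909 CPM), while Gal and Scgb1a1 were found mainly in cluster 1.

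Orm1 was also found in cluster 9, at 43.0, 52.8 and 82.7 CPM in the vehicle libraries and 179 CPM at 28 dpi under PLX5622 (14 UMIs in 3 of 32 cells). In the cycling cluster 8, whose leading genes include the granule protease gene Elane, it was at 83.1 CPM in sham vehicle cords, in 9 of 29 cells. Npy was found in neural cells as well. In the ependymal-like cluster 6 it was at 65.5 CPM (47.8 to 87.7) at 7 dpi under vehicle and 66.3 CPM (46.7 to 91.4) under PLX5622, 2 intervals that overlap. In the astrocyte-like cluster 4 it was at 6.41, 54.4 and 24.1 CPM under vehicle and 37.5, 38.1 and 72.6 CPM under PLX5622. In cluster 8 at 7 dpi under PLX5622 17 of its 18 Npy UMIs were in 1 cell.

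The receptors of galanin and neuropeptide Y had almost no UMIs in cluster 1. Galr1, Galr2, Galr3, Npy2r, Npy4r, Npy5r and Npy6r had 0 UMIs in cluster 1 in all 6 libraries, and Npy1r had 1. Among the enzymes that turn precursors into active peptides, Pam, which amidates both, was at 26.1 and 28.6 CPM at 7 dpi under vehicle and PLX5622, a log2 ratio of 0.13 (-0.32 to 0.55). At 28 dpi it was at 3.82 and 34.2 CPM, a log2 ratio of 3.16 (2.55 to 3.77) from 53 UMIs under vehicle and 44 under PLX5622. The convertase gene Pcsk1 had 0 UMIs and Pcsk2 at most 5 in a library. Of the 13 receptor and processing genes 5 were detected at 7 dpi, and only Pam had 100 UMIs. Other neuropeptide genes gave almost nothing, with 6 of 15 detected at 7 dpi and none with 100 UMIs.

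Acute phase genes beside Hp and Orm1 gave mixed values. Of 17 such genes, 12 were detected in cluster 1 at 7 dpi and 4 had 100 UMIs, with a median log2 ratio of 0.57. Il1rn, encoding the interleukin 1 receptor antagonist, was past 4-fold with 2.26 (1.80 to 2.70), from 60 UMIs under PLX5622 and 143 under vehicle. C3, the central complement protein, had a 7 dpi log2 ratio of 0.84 (0.36 to 1.29) and a 28 dpi log2 ratio of -1.16 (-1.96 to -0.47). Saa3, an acute phase apolipoprotein gene, had ratios of 0.13 (-0.38 to 0.60) and 0.11 (-1.39 to 1.31) at these times. Lrg1 had a 7 dpi log2 ratio of 2.46 (1.42 to 3.42), from 14 UMIs under PLX5622 and 29 under vehicle. At 28 dpi 9 genes were detected and 2 had 100 UMIs, neither of them past 4-fold. Lbp, encoding the lipopolysaccharide binding protein, had a 28 dpi log2 ratio of 4.17 (1.80 to 6.85), from 5 UMIs under PLX5622 and 3 under vehicle, and Serpina3n one of 2.43 (-1.04 to 5.23).

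Genes that handle haemoglobin and haem after haptoglobin has bound it were present in cluster 1. Hmox1, the enzyme that breaks down haem, was at 205 CPM under vehicle and 465 CPM under PLX5622 at 7 dpi, a log2 ratio of 1.18 (1.07 to 1.29), and at -0.18 (-0.41 to 0.04) at 28 dpi. Slc48a1, a haem transporter of the phagosome, had a 7 dpi log2 ratio of 0.62 (0.40 to 0.83) and a 28 dpi log2 ratio of 0.47 (0.06 to 0.86). Ftl1, a ferritin light chain gene, had 0.31 (0.29 to 0.32) at 7 dpi. Blvrb, encoding a biliverdin reductase, and Fth1, the ferritin heavy chain gene, were on the other side of 0 at that time, with log2 ratios of -0.33 (-0.55 to -0.12) and -0.24 (-0.25 to -0.22). Cd163, the receptor for haptoglobin bound to haemoglobin, had 1 UMI at 7 dpi under vehicle and 0 under PLX5622. Of the 7 genes, 6 had 100 UMIs at each time, with medians of 0.04 and 0.03, and none passed 4-fold.

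No other secretoglobin came with Scgb1a1. Of 9 secretoglobin and airway genes, Scgb3a1 had 8 UMIs in cluster 1 at 7 dpi under vehicle, Cyp2f2 had 1 at 28 dpi under vehicle, and the other 7 had 0. Genes of alternative macrophage activation were higher in part. Chil3 had a log2 ratio of 1.58 (1.35 to 1.80) at 7 dpi, and Fabp4, a fatty acid binding protein gene, had 0.70 (0.57 to 0.82) at the same time. At 28 dpi Fabp4 was the 1 gene of 6 past 4-fold, with a log2 ratio of 2.93 (2.72 to 3.13). Mrc1, the mannose receptor gene, was at -0.62 (-1.71 to 0.29) at 7 dpi.

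Markers of other possible sources were summed over the member-positive and the other cells of cluster 1. The 8 peripheral neuron genes had 0 UMIs in all cluster 1 cells of the PLX5622 libraries, with or without a member. They therefore cannot tell the member-positive cells from the others. The 10 neuron genes had 3 UMIs in Gal-positive cells at 7 dpi (5.69 CPM against 14.8 in the other cells) and 1 UMI in Npy-positive cells at 28 dpi (2.92 against 14.8). In Npy-positive cells at 7 dpi under PLX5622 they were the higher ones, at 24.0 CPM against 9.20, from 8 UMIs in 5 of 10 cells. Erythroid genes moved with the diet at 28 dpi, Hba-a2 with a log2 ratio of 4.20 (3.79 to 4.62), but their summed level was 8.75 CPM in Npy-positive cells and 193 CPM in the others. The summed neutrophil genes were higher in positive than in other cells in 16 of the 17 combinations, among them Gal (334 against 212 CPM), Hp (333 against 187) and Scgb1a1 (360 against 182) at 7 dpi under PLX5622, and Npy (225 against 148) and Orm1 (292 against 147) at 28 dpi under PLX5622, with Retnlg, Ngp and Camp at 0. For Hp they were at 872 against 291 CPM at 7 dpi under vehicle and at 221 against 281 CPM at 28 dpi under vehicle. Their part in the results was not tested. Of the 5 hepatocyte genes 4 were detected in cluster 1 at 7 dpi, none with 100 UMIs. Of the 6 Schwann cell genes only Pmp22, which other cells also express, had 100 UMIs, with log2 ratios of -0.99 at 7 dpi and -0.16 at 28 dpi.

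Some genes followed the members across clusters. Pearson's r of log2(CPM + 10) was computed over the 66 groups of a cluster and a library with at least 20 cells, which share libraries and depth, among 12851 genes. Scgb1a1 was most like Gdf15 (0.83), a stress-induced cytokine gene, then Slc36a2 (0.81), BC021767 (0.79), 1300002K09Rik (0.78) and Gal (0.74). Gal was most like Slc36a2 (0.81), an amino acid transporter gene, followed by Scgb1a1. Orm1 was most like Cebpe and Gpr97 (both 0.86), and Hp like F630028O10Rik (0.96), Chil3 (0.95) and Mcemp1 (0.95). The closest genes to Npy were Slc27a1 (0.67), Gcsh (0.65) and Cdo1 (0.64). Between members r was 0.78 for Orm1 and Hp, and -0.22 for Hp and Npy.

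The selection used the levels of both diets at both times, so that changes over time within a diet are a description. In cluster 1 of the vehicle libraries each gene was lower at 28 than at 7 dpi, with log2 ratios of -3.19 for Npy, -2.34 for Orm1, -3.11 for Hp and -6.52 for Scgb1a1, and for Gal at most -6.74 against the floor of 3 counts. From sham to 7 dpi under vehicle Gal was at least 10.9-fold higher and Hp at least 2.95-fold, against the same floor over the cluster, and Scgb1a1 had a log2 ratio of 0.77 (0.16 to 1.46). Npy and Orm1 had 1.48 (0.92 to 2.10) and -0.50 (-1.40 to 0.54). The PLX5622 libraries split the genes. From 7 to 28 dpi Npy had a log2 ratio of 4.17 (3.70 to 4.68) and Orm1 of 3.68 (2.81 to 4.67), while Hp had -3.82, Scgb1a1 -2.54 and Gal at most -7.00. None of these could be tested over mice, since each condition had 1 library.

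**Figure D5:**
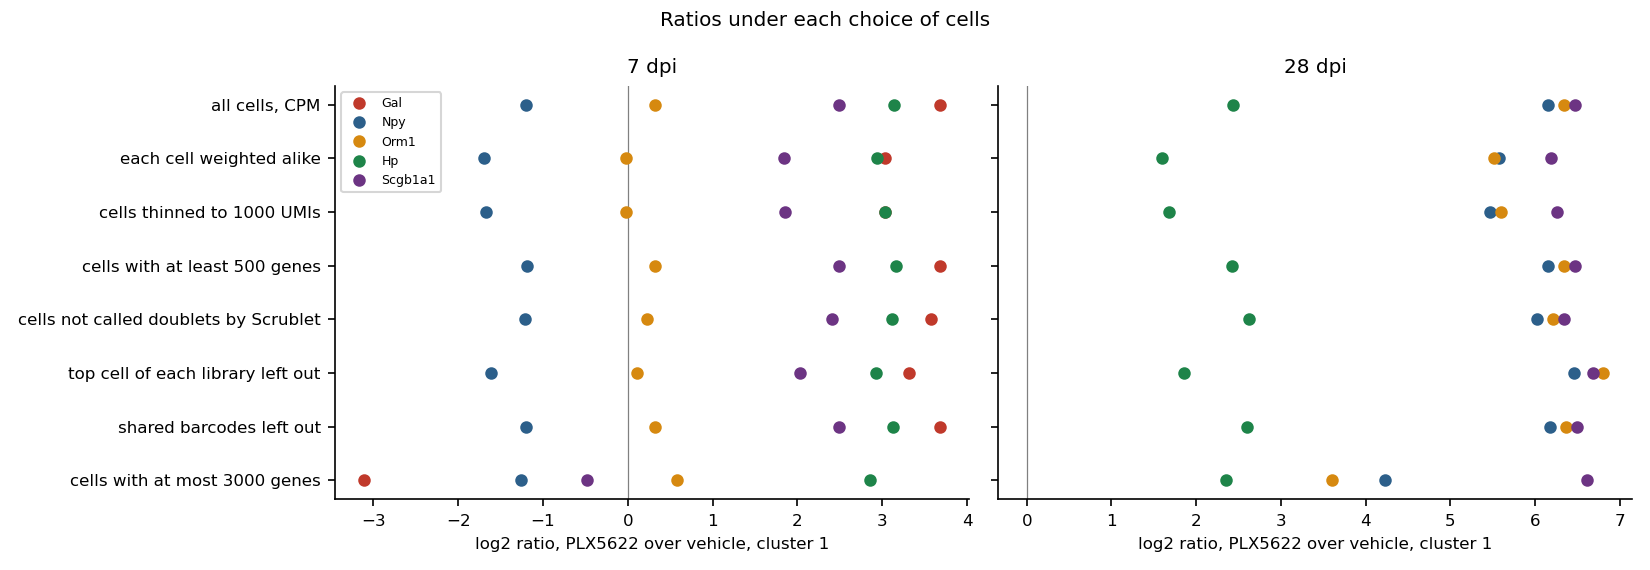
Log2 ratio of PLX5622 over vehicle in cluster 1 at 7 and 28 dpi for each gene (points, by colour) under 8 choices of cells. With cells of at most 3000 genes the 7 dpi points of Gal and Scgb1a1 lay below 0, at -3.11 and -0.48, and the 28 dpi points of Npy and Orm1 lay at 4.23 and 3.60. The Gal point rests on 1 UMI under PLX5622, and the interval of the Scgb1a1 point (-1.80 to 0.58) spans 0.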

How the data were processed

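The deposited counts were whole UMI counts per gene and cell from droplet 3′ libraries, made by the authors with Cell Ranger and filtered and clustered with Seurat. They were used as deposited, with the clusters of the authors and the library of each cell. The genes, the lists and the markers were chosen with earlier results of these data known. Of 21270 barcodes in the library matrices, 254 with fewer than 200 genes were not in the table. UMIs were summed per cluster and library and divided by the summed UMIs (Python 3.11.15, SciPy 1.17.1). Ratios took the summed UMIs as exposure, with the exact conditional binomial interval, checked on simulated counts. A count of 0 was set to a floor of 3 for bounds. Doublets were scored by Scrublet in scanpy 1.11.5, calling the top 0.8% per 1000 barcodes, and were kept. TMM (edgeR 4.0.16) and DESeq2 1.42.0 size factors served for scaling only. No test was run, because each condition had 1 library. Besides the members, the genes named were those of the gene lists, the 5 most alike by correlation, and genes with the 10 highest and 5 lowest ratios in carriers, of which a few are printed. Positions and transcripts were taken from the GRCm38 annotation. The 14 bulk samples are not analysed here.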

Additional observations from a re-analysis of the deposited data

Results flagged for a closer look

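The log2 ratio of PLX5622 over vehicle for Npy in cluster 1 went in opposite directions at the 2 times, with -1.20 at 7 dpi and 6.16 at 28 dpi. The ratio of C3 in the same cluster was 0.84 at 7 dpi and -1.16 at 28 dpi. For Hp in the monocyte-like cluster 3 the ratio was 0.95 in the sham libraries and -0.77 at 28 dpi. Each pair had counting intervals on opposite sides of 0. The differences between times were not tested, since every condition had 1 library, and depth moves with the diet. Median UMIs per cell were higher under PLX5622 in cluster 1 at both times and in cluster 3 at 28 dpi (4764 against 1830), but lower in cluster 3 of the sham libraries (2305.5 against 6065).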

How the results depend on the processing

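With each cell weighted alike the log2 ratio at 7 dpi was 3.03 for Gal and 1.84 for Scgb1a1, and at 28 dpi 5.57 for Npy and 5.52 for Orm1. The same equal weighting among cells with at least 1000 UMIs gave 3.04 for Gal, 1.85 for Scgb1a1 and, at 28 dpi, 5.47 for Npy. That is the expected ratio after thinning to 1000 UMIs, and it is not a separate check of depth. Without the top cell of each library it was 3.32 for Gal and 2.03 for Scgb1a1 at 7 dpi. The split at 3000 genes, chosen after seeing the data, moved most values. Among cells at or below it the 7 dpi ratio of Gal reversed to -3.11 (-8.42 to -0.62), from 1 UMI under PLX5622. That of Scgb1a1 was -0.48, from 7 UMIs under PLX5622, with an interval of -1.80 to 0.58 that spans 0. The 28 dpi ratios were 4.23 for Npy and 3.60 for Orm1. Among cells above it the 7 dpi ratios were 5.15 for Gal, 3.56 for Scgb1a1 and -1.75 for Npy, and the 28 dpi ratios were 5.34 (2.83 to 10.7, against 1 UMI) for Orm1 and at least 0.39 for Scgb1a1, from 10 UMIs against 0. Genes past 4-fold numbered 552 with no minimum of UMIs and 67 with at least 20 at 7 dpi, and 442 and 100 at 28 dpi. Thinned to 2000 UMIs, the vehicle shares at 7 dpi were 2.29% for Gal, 5.82% for Npy, 1.06% for Hp and 2.82% for Scgb1a1. The fewest cells with 50% of the UMIs were also taken with each cell of at least 1000 UMIs scaled to 1000. For Hp they were 22 at 7 dpi under vehicle, and 3 at 7 dpi and 1 at 28 dpi under PLX5622. For Scgb1a1 at 28 dpi under vehicle they were 2. The remaining 39 recomputed ratios at 7 dpi and 32 at 28 dpi, over members and settings, stayed inside the counting interval of the ratio reported. The pool of mice behind each library and the depth of the PLX5622 cells limit what these values show. No paired analysis was possible because each condition had 1 library.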
